A study of Mus musculus with 6 samples.

Results

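Coding-gene deserts are long stretches of chromosome in which no protein-coding gene starts. The open chromatin sites inside them were read from a pair of deposited peak lists, which hold ATAC-seq peaks that recurred between replicates of mouse embryonic stem cells (mESCs). The lists cover WT cells and Spen KO clone 3. A peak was counted as a desert peak when it lay on chromosomes 1 to 19 and its midpoint was more than 500 kb from the start of every protein-coding gene, with 1 start per gene from the GENCODE annotation of mm9. Chromosome 1 from 100 to 130 Mb, where the lists differ as a whole, was left out. By this rule 1290 of the 46475 peaks in both lists were desert peaks, 794 of the 22101 clone 3 peaks and 496 of the 21555 WT peaks that lay on the autosomes outside that segment. Where a clone 3 peak and a WT peak shared at least 1 bp they were called shared, and the others clone 3-only or WT-only. The members fell into 437 shared, 357 clone 3-only and 60 WT-only places, 854 in all. The 437 are shared peaks of the clone 3 list, and the WT list had 436 shared peaks whose own midpoint lay in a desert, which are not in every case their partners.

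The study asked how loss of Spen, an RNA-binding repressor that silences genes on the X chromosome together with the long noncoding RNA Xist, changes chromatin accessibility. The lines are HATX WT, Spen KO clone 2 and Spen KO clone 3, haploid mESCs that carry a doxycycline-inducible Xist transgene, of mixed genomic background, grown in serum and LIF on gelatin. Each line was sampled without doxycycline and after 48 hr with 2 ug/ml, and libraries were made from 2 replicates per line. No doxycycline state is given for either list, since each is named by its line, clone 3 is 1 clone, and clone 2 was not analysed here. There was 1 list per line, so no difference between the lines could be tested and no p-value is given. Intervals are 95% intervals (Wilson for shares, binomial for medians, exact for densities and ratios). They cover counting error only, and the read depth behind each list is unknown. Of 10 embryonic stem cell marker genes, 4 had a WT peak and 3 a clone 3 peak within 1 kb of their start, and Pou5f1, Nanog, Esrrb, Dppa5a and Tdgf1 had none in either list. Markers of fibroblasts had a peak at 1 of 5 starts in WT and 0 of 5 in clone 3, trophoblast markers at 0 of 3 in each, endoderm markers at 1 of 4 in each, and neural markers at 0 of 2 in WT and 1 of 2 in clone 3. The Spen start had a peak in both lists, so the peaks do not check the knockout.

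Gene deserts are poor in G and C, hold many copies of LINE-1 retrotransposons, and often border genes of neural development. Some hold enhancers that act on a gene far away, and in many cell types they lie in compact chromatin. ATAC-seq reads out openness through the transposase Tn5, which inserts adapters where DNA is free of nucleosomes, and the methods for peak calling describe reads that mapped to a unique place.

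Sequences at the centre of high-scoring peaks are shown because the classes differed in repeated sequence and in base composition, as described after them. Each peak carries a value for each of 2 technical replicates, on a scale that is not named, and their average, the score, served only to rank peaks within a list. Multi-copy means that 50% or more of a peak's 24-base sequences had 10 or more copies in the genome. The peaks shown are the highest-scoring one of each class that is not multi-copy, and the highest-scoring multi-copy clone 3-only one. The highest-scoring WT-only peak of all was itself multi-copy and is not shown. All 4 sequences are 300 bases of the plus strand of mm9, and capitals mark matches to the motifs given further below. The clone 3-only peak that is not multi-copy lies at chr16:71114686-71114985. The WT-only peak that is not multi-copy lies at chr15:14949168-14949467. The shared peak that is not multi-copy lies at chr12:98299670-98299969. The clone 3-only multi-copy peak lies at chr14:81960509-81960808.
Clone 3-only, not multi-copy: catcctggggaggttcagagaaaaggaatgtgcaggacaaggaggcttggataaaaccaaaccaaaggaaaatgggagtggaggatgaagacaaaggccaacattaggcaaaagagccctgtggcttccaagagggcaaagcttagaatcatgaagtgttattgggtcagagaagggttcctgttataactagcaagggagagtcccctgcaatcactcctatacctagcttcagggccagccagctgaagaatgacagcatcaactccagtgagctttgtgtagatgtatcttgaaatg
WT-only, not multi-copy: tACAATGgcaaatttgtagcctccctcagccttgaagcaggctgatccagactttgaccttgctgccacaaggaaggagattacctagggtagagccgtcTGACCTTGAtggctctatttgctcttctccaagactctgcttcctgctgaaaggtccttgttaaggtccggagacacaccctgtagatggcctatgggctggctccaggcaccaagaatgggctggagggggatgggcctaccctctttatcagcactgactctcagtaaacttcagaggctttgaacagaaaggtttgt
Shared, not multi-copy: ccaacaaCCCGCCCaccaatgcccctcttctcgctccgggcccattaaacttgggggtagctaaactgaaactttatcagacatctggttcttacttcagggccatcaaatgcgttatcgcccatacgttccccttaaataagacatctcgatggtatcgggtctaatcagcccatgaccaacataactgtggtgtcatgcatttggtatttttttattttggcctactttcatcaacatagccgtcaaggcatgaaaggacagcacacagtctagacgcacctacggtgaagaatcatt
Clone 3-only, multi-copy: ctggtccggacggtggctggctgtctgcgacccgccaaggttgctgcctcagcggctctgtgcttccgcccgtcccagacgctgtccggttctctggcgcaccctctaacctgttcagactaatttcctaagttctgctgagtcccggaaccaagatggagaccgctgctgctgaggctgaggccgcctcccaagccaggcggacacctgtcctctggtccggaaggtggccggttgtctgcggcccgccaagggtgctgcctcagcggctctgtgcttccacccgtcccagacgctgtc
The multi-copy sequence had a GC content of 65.3% with 21 CpG dinucleotides. Its peak matched 211 other desert places by BLAST over at least 100 bp. The clone 3-only sequence that is not multi-copy had a GC content of 47.0% and 0 CpG dinucleotides, and its peak matched 0 other desert places. The WT-only sequence, with a GC content of 51.3% and 2 CpG dinucleotides, held a Sox core at position 2 and an Esrrb site at position 101, both counted from 1 at the 5′ end, and its peak matched 13 other desert places. The shared sequence had a GC content of 46.3% and a GC box at position 8, and its peak matched the mitochondrial chromosome over 365 bp with 99.7% identity.

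Desert peaks of the clone 3 list were absent from the WT list far more often than desert peaks of the WT list were absent from the clone 3 list. Of the 794 clone 3 desert peaks, 357 (45%, interval 41.5 to 48.4) overlapped no WT peak, beside 27.9% of all 22101 clone 3 peaks analysed and 27.2% (interval 26.6 to 27.8) of those outside deserts. Of the 496 WT desert peaks, 60 (12.1%, interval 9.51 to 15.3) overlapped no clone 3 peak, beside 26.1% of all 21555 WT peaks analysed and 26.5% (interval 25.9 to 27.1) of those outside deserts. For each WT-only peak there were 5.95 clone 3-only peaks in deserts (interval 4.52 to 7.96) and 1.04 elsewhere (interval 1.00 to 1.08). Seen from the classes, 5.80% of clone 3-only peaks, 2.74% of shared peaks and 1.06% of WT-only peaks lay in deserts.

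Base composition of the surroundings moved with these shares. The 20 kb around a desert peak had a median GC content of 38.4% for clone 3-only, 38.0% for shared and 39.2% for WT-only peaks, beside 44.1%, 44.6% and 46.3% elsewhere. When peaks outside deserts were weighted to the surrounding GC content of the desert peaks, in bins of 2 percentage points, 13.3% of WT peaks were WT-only, close to the 12.1% of desert peaks. The same weighting gave 33.2% for clone 3-only peaks, below the 45% of desert peaks. With multi-copy status added to it, the weighted shares were 38.0% for clone 3 and 13.6% for WT. Weighting by the GC content of the peak itself gave 30.7% and 24.0%, by score decile 19.7% and 23.5%, and by surrounding GC content and score decile 36.8% and 16.1%. Weighted shares are descriptions of these lists, and the part that base composition has in the difference between the lists was not tested.

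The shares did not change abruptly at the desert radius. Among clone 3 peaks within 1 kb of a coding gene start, 12.4% were clone 3-only, and the share was 33.3% at 1 to 10 kb, 33.8% at 10 to 50 kb, 34.6% at 50 to 100 kb, 39.3% at 100 to 250 kb, 41.2% (interval 38.2 to 44.3) at 250 to 500 kb, 44.1% (interval 40.1 to 48.1) at 500 to 1000 kb and 47.7% (interval 40.8 to 54.7) beyond 1000 kb. Among WT peaks the WT-only share was 20.3% within 1 kb, 35.7% at 1 to 10 kb, 31.6% at 10 to 50 kb, 29.1% at 50 to 100 kb, 25% at 100 to 250 kb, 16.2% (interval 13.7 to 19.1) at 250 to 500 kb, 13.5% (interval 10.4 to 17.2) at 500 to 1000 kb and 7.27% (interval 3.73 to 13.7) beyond 1000 kb. The WT-only share was the higher one up to 10 kb and the clone 3-only share from 10 kb on, and from there the gap between the point values widened with each bin, although neighbouring intervals overlapped in the desert bins. The members nearest to the radius, both shared, lay just over 500 kb from Btbd3 on chromosome 2 (clone 3 score percentile 40.1) and 500.1 kb from Lphn3 on chromosome 5 (percentile 4.25). The nearest peaks that missed it, also shared, lay 499 kb from Csmd1 on chromosome 8 (percentile 32.2) and 499.5 kb from Gm9931 on chromosome 1 (percentile 79.9).

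**Figure D1:**
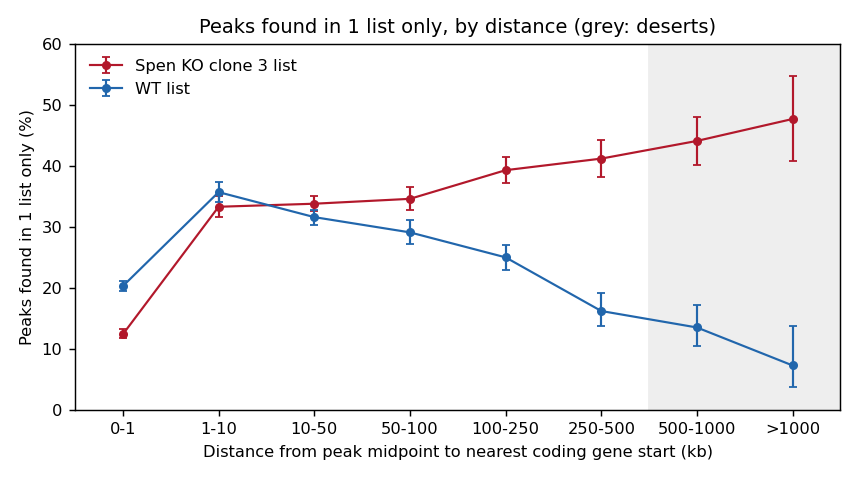
Share of peaks found in 1 list only (%, y axis) by distance from the peak midpoint to the nearest coding gene start (kb, x axis), for the clone 3 list (red) and the WT list (blue), with 95% Wilson intervals as bars and the desert bins shaded grey. Beyond 1000 kb the shares were 47.7% in clone 3 and 7.27% in WT, while at 1 to 10 kb they were 33.3% and 35.7%.

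Outside the left-out segment, 345 stretches of autosomal sequence lay over 500 kb from every coding gene start. They held 241 Mb, 10.2% of the 2364 Mb analysed, with a median of 451 kb and a longest stretch of 3.52 Mb. All peak classes were sparser there than elsewhere. Clone 3-only peaks stood at 1.48 per Mb (interval 1.33 to 1.64) in deserts and 2.73 per Mb elsewhere, shared peaks at 1.81 and 7.31 per Mb, and WT-only peaks at 0.249 (interval 0.190 to 0.320) and 2.63 per Mb. A peak of either list lay in 245 stretches, including each of the 85 stretches of at least 1 Mb. Clone 3-only peaks were spread over 173 stretches and WT-only peaks over 50. More clone 3-only than WT-only peaks lay in 153 stretches, fewer in 22, and equal numbers above 0 in 15. In 42 stretches a clone 3-only peak was the only kind of peak, and in 8 a WT-only peak was. Of the clone 3-only peaks, 283 (79.3%) lay in a stretch that also held a shared peak.

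**Figure D2:**
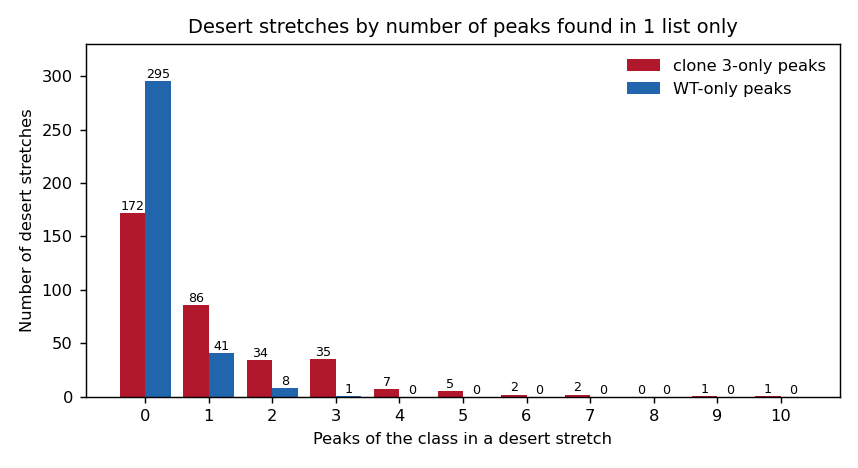
Number of desert stretches (y axis, of 345) that held a given number of clone 3-only peaks (red bars) or WT-only peaks (blue bars) on the x axis, with the number written above each bar. No clone 3-only peak lay in 172 stretches and no WT-only peak in 295, and the largest numbers in a stretch were 10 and 3.

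Stretches were ordered by the sum of the peaks of both lists, in which a shared place counts in each. The first lay on chromosome 5 from 58609261 to 61700081, between Pcdh7, a protocadherin of cell adhesion, and G6pd2, a retrogene of glucose-6-phosphate dehydrogenase. It held 20 clone 3 peaks, of which 10 were shared and 10 clone 3-only, and 0 WT-only peaks. On the other side of Pcdh7, from 54889763 to 57609259 and next to Stim2, a calcium sensor of the endoplasmic reticulum, 6 peaks were shared, 9 were clone 3-only and 0 were WT-only. Between Lrrn3, a neuronal leucine-rich repeat gene, and Dnajb9, an endoplasmic reticulum chaperone (chromosome 12 from 42712339 to 44811054), 8 were shared, 7 clone 3-only and 0 WT-only. A stretch between 4930423O20Rik and Robo1 on chromosome 16 also had 7 clone 3-only peaks, with 1 shared and 0 WT-only. No stretch had more clone 3-only peaks than these 4. Each of them had 0 WT-only peaks, which held for 295 of all 345 stretches.

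The other 3 of the 6 stretches first in this order held fewer clone 3-only peaks. Between Nxph1, which encodes a secreted ligand of neurexins, and Ndufa4, a gene of the respiratory chain (chromosome 6 from 9398432 to 11357445), 7 peaks were shared, 6 clone 3-only and 0 WT-only. Between Gm17624 and Vstm2a (chromosome 11 from 13048081 to 15657726) 8 were shared, 3 clone 3-only and 1 WT-only. Between Gm10110 and Pcdh9, another protocadherin (chromosome 14 from 90798274 to 93787950), 9 were shared, 2 clone 3-only and 0 WT-only. The longest stretch, between Celf4 and Pik3c3, held 7 shared, 4 clone 3-only and 1 WT-only place, more places than the last of these 6. WT-only peaks were most frequent between 4930452B06Rik and Fhit (chromosome 14 from 9998755 to 11494548), where each class had 3 places. In 8 stretches there were 2 WT-only peaks. Their clone 3-only peaks ranged from 0 between Sorcs1 and Ins1 to 3 between Prmt6 and Amy2a5, a pancreatic amylase gene (chromosome 3 from 110553917 to 112561754), and the stretch between Dbc1 and Cdk5rap2 (chromosome 4 from 69115432 to 69571476) had 1.

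Clone 3-only desert peaks outnumbered WT-only desert peaks on 18 of 19 autosomes. Chromosome 19, with 2.26 Mb of desert, had 1 clone 3-only and 3 WT-only peaks. The clone 3-only share of desert peaks was above that of the other peaks of the same chromosome on 19 of 19 autosomes, and ranged from 33.3% on chromosome 11 (14 of 42) to 58.3% on chromosome 3 (35 of 60). The WT-only share was below that of the other peaks on 18 of 19. WT-only desert peaks numbered 0 of 28 on chromosome 1 and 0 of 18 on chromosome 17. Chromosomes share the same libraries, so these counts describe how the difference was spread and are not replicates.

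**Figure D3:**
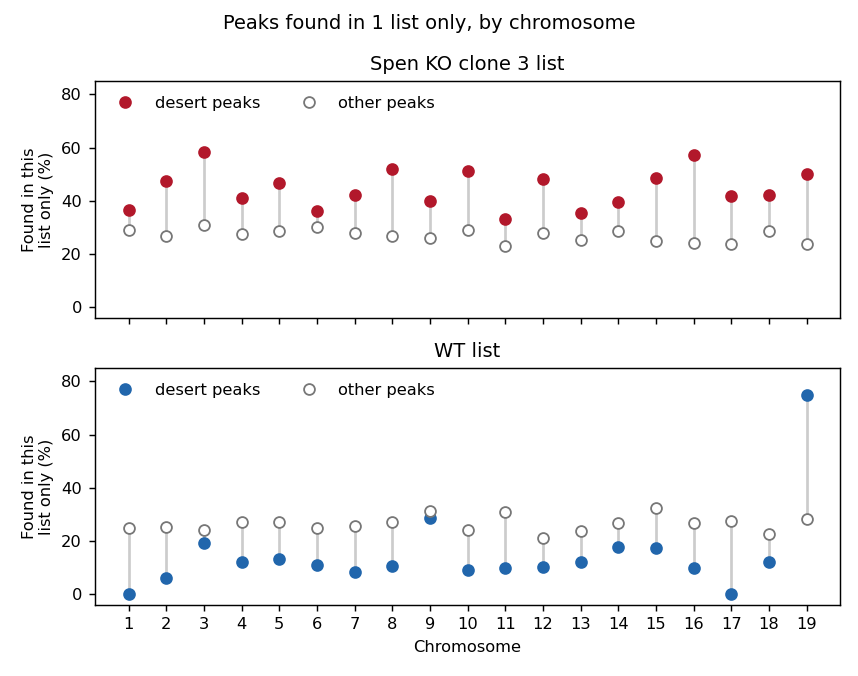
Share of peaks found in that list only (%, y axis) for each autosome (x axis), among desert peaks (filled points) and other peaks (open points), in the clone 3 list (upper panel) and the WT list (lower panel). The clone 3 desert points lie above the open points on 19 of 19 autosomes, and the WT desert points lie below them on 18 of 19, all but chromosome 19, which had 4 WT desert peaks.

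Cadherins and other genes of cell adhesion and guidance made up a larger share of the coding genes that border deserts than of all coding genes. Cadherins and protocadherins, calcium-dependent adhesion proteins, counted here without the clustered protocadherins, were 17 of the 629 flanking genes (2.70%, interval 1.69 to 4.29) and 33 of the 21418 autosomal coding genes (0.154%). Other neuronal adhesion and guidance genes were 34 of 629 (5.41%) beside 0.331% of all, ion channels and neurotransmitter receptors 3.50% beside 0.985%, developmental transcription factors 3.02% beside 1.13%, and developmental ligands and receptors 1.11% beside 0.579%. Chemoreceptor genes, which sit in dense clusters, were 0.159% of flanking genes beside 6.97% of all. The lists of genes were chosen by symbol and no enrichment was tested.

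Among clone 3 desert peaks nearest to a cadherin or protocadherin, 29 of 62 (46.8%, interval 34.9 to 59.0) were clone 3-only, beside 45% of all clone 3 desert peaks. The shares were 42.1% (32 of 76) for other adhesion and guidance genes, 47.6% (10 of 21) for channels and receptors, 50% (7 of 14) for transcription factors and 66.7% (4 of 6, interval 30.0 to 90.3) for ligands and receptors. Next to chemoreceptors there were 0 desert peaks. All these intervals held the share of all clone 3 desert peaks, but they are wide, and no difference between groups was tested.

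Single genes differed within the groups. Of the 12 clone 3 desert peaks nearest to Pcdh7, 8 were clone 3-only and 4 shared, while all 7 nearest to Pcdh9 were shared. Cdh8 and Cdh10, classical cadherins of neurons, had 3 clone 3-only and 3 shared peaks each. Lphn3, a latrophilin adhesion receptor, had 4 clone 3-only and 7 shared peaks, and Lrrc4c, a synaptic adhesion gene, had 2 and 4. Ncam2, an adhesion molecule of neurons, had 3 and 3. Cntn5, a contactin, had 1 clone 3-only, 3 shared and 1 WT-only peak. Among channels and receptors, the potassium channel gene Kcnt2 had 2 clone 3-only and 3 shared peaks, the glutamate receptor gene Grm8 had 1 and 2, and the acetylcholine receptor gene Chrm3 and the potassium channel gene Kcnd2 each had 0 and 2. Among transcription factors, Pou3f2, a neural POU factor, had 1 clone 3-only and 2 shared peaks, Sox5 had 0 and 2, Bcl11a, a zinc finger repressor, had 2 and 0, and Nr2f1, an orphan nuclear receptor, had 0 clone 3-only, 1 shared and 1 WT-only peak. Inhba, a subunit of activin, had 3 clone 3-only peaks and 1 shared peak, and Erbb4, a receptor of neuregulins, had 1 of each. The counts per gene are small, and which gene a distant peak acts on is not known from these lists.

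Most desert peaks lay between genes. Coding gene bodies held 13.2% of clone 3-only (interval 10 to 17.1), 16.7% of shared and 23.3% (interval 14.4 to 35.4) of WT-only desert peaks, beside 46.8%, 48.4% and 53.0% elsewhere. The 48 genes concerned had a median length of 1103 kb, beside 15.5 kb for all autosomal coding genes, since a peak can lie over 500 kb from a start inside a gene only where the gene is that long. Macrod2, an ADP-ribose hydrolase, held 5 clone 3-only and 4 shared peaks. Pde4d, a cyclic AMP phosphodiesterase, held 1 clone 3-only, 6 shared and 1 WT-only peak. Fhit held 3 clone 3-only, 3 shared and 2 WT-only peaks. Nrxn3, which encodes a presynaptic adhesion protein, held 3 clone 3-only and 3 shared peaks. A lincRNA or processed transcript started within 100 kb of 5.88% of clone 3-only, 5.95% of shared and 5.0% of WT-only desert peaks, beside 31.6%, 36.9% and 40.6% elsewhere. The nearest annotated gene of any kind was most often a pseudogene or a small RNA gene. Pseudogenes were nearest to 21.3% of clone 3-only and 25.2% of shared desert peaks, snRNA genes to 24.1% and 18.8%, and snoRNA genes to 19% of each.

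Repeated sequence was frequent in desert peaks, above all in those of clone 3. Multi-copy peaks made up 43.7% of clone 3-only (interval 38.6 to 48.9), 25.6% of shared (interval 21.8 to 29.9) and 28.3% of WT-only desert peaks (interval 18.5 to 40.8), beside 15.4%, 5.22% and 3.64% elsewhere. Sequence like L1Md_F, an element of a young LINE-1 family, lay within 8 kb of 47.3%, 33.6% and 38.3% of them, beside 17.9%, 7.02% and 3.55% elsewhere. Among peaks that are not multi-copy, with the classes kept from the full lists, 38.2% of clone 3 desert peaks were clone 3-only (201 of 526, interval 34.2 to 42.4) and 11.8% of WT desert peaks WT-only (43 of 365), a ratio of the counts of 4.67 (interval 3.35 to 6.66). Leaving out peaks near L1Md_F-like sequence, the ratio was 5.08 (interval 3.56 to 7.44). Among multi-copy desert peaks the ratio was 9.18 (interval 5.55 to 16.2). Outside deserts it was 0.914 without multi-copy peaks and 4.40 (interval 3.77 to 5.15) among them.

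Many desert peaks were copies of each other. Peaks were put in a group when they matched the same desert peak by BLAST (at least 80% identity over at least 100 bp), and 21 groups had at least 5 places. Groups held 58.5% of clone 3-only, 56.8% of shared and 38.3% of WT-only places. The largest, to which the multi-copy sequence above belongs, had 216 places in 125 stretches on 19 chromosomes, 124 of them clone 3-only, 79 shared and 13 WT-only. Its median GC content was 62.6%, 99.1% of its places were multi-copy, and all lay within 8 kb of L1Md_F-like sequence. A group of 34 places with a median GC content of 64.8% had 21 clone 3-only, 12 shared and 1 WT-only. The group of 56 places that holds the WT-only sequence above was mostly shared, with 44 shared, 11 clone 3-only and 1 WT-only, and had a median GC content of 42.6%. A group of 28 places had 20 shared, 7 clone 3-only and 1 WT-only, and a group of 22 had 17 shared, 5 clone 3-only and 0 WT-only. Of these 5 largest groups, the 2 richest in GC were thus mostly clone 3-only and the other 3 mostly shared. Places in a group share their sequence and are not independent of each other.

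The GC content of the peaks also differed by class. Clone 3-only desert peaks had a median GC content of 50.8% (interval 49.4 to 54.6), shared ones 48.1% (interval 47.2 to 49.0) and WT-only ones 50.7% (interval 49.3 to 54.3), beside 53.8%, 57.6% and 55.5% elsewhere. Without multi-copy peaks the medians in deserts were 46.3% for clone 3-only and 46.5% for shared peaks, so the higher value of clone 3-only peaks was no longer seen, and 49.3% for WT-only ones. A GC content of at least 60% was found in 33.1% of clone 3-only (interval 28.4 to 38.1), 19.9% of shared and 25% of WT-only desert peaks. Of the 205 clone 3 desert peaks in that range, 96.6% were multi-copy, beside 13.9% outside deserts, and 57.6% (interval 50.7 to 64.1) were clone 3-only, beside 20.7% outside deserts. Among multi-copy peaks of that range alone, the clone 3-only share was 58.6% (interval 51.6 to 65.2) in deserts and 57.4% elsewhere. Among peaks under 50% GC that are not multi-copy, it was 38.4% (interval 33.8 to 43.2) in deserts and 36.0% (interval 34.6 to 37.4) elsewhere. Between 50 and 60% GC and not multi-copy, it was 38.3% (interval 29.9 to 47.4) and 27.6%. Multi-copy peaks between 50 and 60% GC had shares of 68.3% (interval 53.0 to 80.4) in deserts and 52.8% (interval 47.2 to 58.4) elsewhere. The intervals thus overlapped among multi-copy peaks of both ranges and among peaks under 50% GC that are not multi-copy, and did not overlap among peaks of 50 to 60% GC that are not multi-copy. The WT-only share of peaks under 50% GC that are not multi-copy was 8.27% (interval 5.53 to 12.2) in deserts and 25% elsewhere, and between 50 and 60% GC it was 20.9% (interval 13.8 to 30.3) and 31.4%. Among multi-copy WT peaks under 50% GC it was 5.26% (1 of 19, interval 0.935 to 24.6) in deserts and 27.9% (interval 22.8 to 33.7) elsewhere. Among multi-copy WT peaks of 50 to 60% GC the shares lay nearer to each other, at 21.4% (interval 7.57 to 47.6) and 23.0%. From 60% GC on they were 13.3% (interval 7.92 to 21.4) and 15.6%. CpG-rich peaks, with over 50% GC and a ratio of observed to expected CpG of at least 0.6, were 5.88% of clone 3-only and 5.95% of shared desert peaks, beside 17.7% and 42.9% elsewhere. By the desert rule, peaks at coding gene starts all count as elsewhere, which bears on these comparisons of GC and CpG content. The 7492 clone 3 peaks within 1 kb of a start had a median GC content of 63.6%. The median for clone 3 peaks was 49.7% at 250 to 500 kb, outside deserts, and 49.1% at 500 to 1000 kb.

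**Figure D4:**
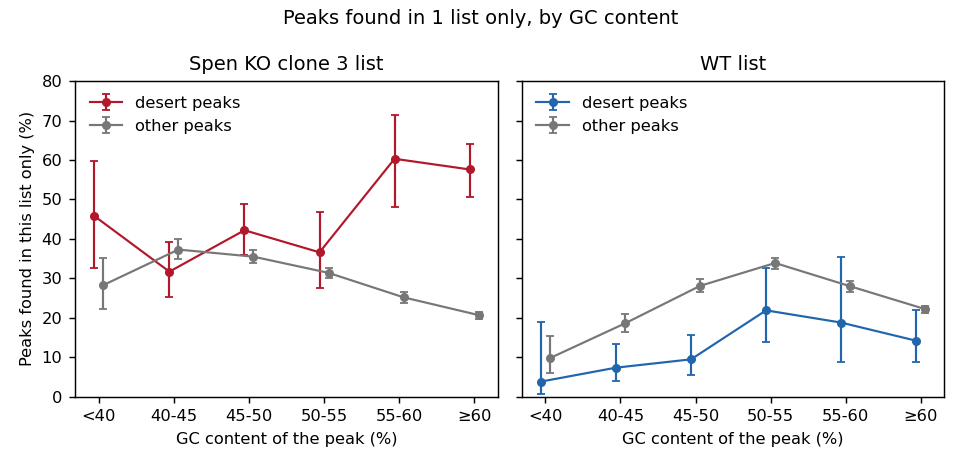
Share of peaks found in that list only (%, y axis) by GC content of the peak (%, x axis), for desert peaks (red or blue) and other peaks (grey), with 95% Wilson intervals as bars. At a GC content of at least 60%, where 96.6% of clone 3 desert peaks were multi-copy, the clone 3-only share was 57.6% in deserts and 20.7% elsewhere.

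Short motifs were counted in the 300 bp around each midpoint, on both strands, where matches of different motifs may overlap. The Sox core CATTGT was found in 21.7% of shared desert peaks (interval 18.1 to 25.8), 13.7% of clone 3-only and 15% of WT-only ones, beside 12.1% of all clone 3 and 11.5% of all WT peaks analysed. The octamer ATGCAAAT, read by POU factors such as Oct4, was found in 3.89%, 5.32% and 1.67% of these classes, beside 3.29% and 3.25%. The CTCF core was found in 0.458%, 0.560% (2 of 357) and 6.67% (4 of 60, interval 2.62 to 15.9), beside 2.26% and 2.32%. The Esrrb site TCAAGGTCA stood at 1.37%, 0.560% and 1.67%, beside 0.724% and 0.538%. The AP-1 site TGANTCA stood at 10.1%, 7.28% and 8.33%, beside 7.98% and 8.42%. The GC box GGGNGGG stood at 40.7%, 42.9% and 46.7%, beside 55.9% and 57.7%. All peaks analysed include those at coding gene starts, which the desert rule leaves out of deserts. A match is a run of letters, and binding was not measured.

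Clone 3-only desert peaks ranked higher in their list than other clone 3-only peaks. Their median score percentile was 44.7 (interval 42.5 to 47.3), beside 21.0 (interval 20.3 to 21.8) for clone 3-only peaks elsewhere. WT-only desert peaks had a median of 29.1 (interval 24.0 to 35.9), beside 20.2 elsewhere. Scores at or above the list median were found in 38.4% of clone 3-only (137 of 357) and 16.7% of WT-only desert peaks (10 of 60), and among these the ratio of the counts was 13.7 (interval 7.23 to 29.2), beside 1.23 elsewhere. The top 10 percent of each list held 0 of the 357 (interval up to 1.06%) and 0 of the 60 (interval up to 6.02%). At percentiles 75 to 100 9.46% of clone 3 desert peaks were clone 3-only (21 of 222), beside 1.78% elsewhere, and 0.893% of WT desert peaks were WT-only (1 of 112, interval 0.158 to 4.88), beside 0.778% elsewhere.

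The highest-scoring clone 3-only peak, with replicate values of 29.1 and 29.5, lay between genes on chromosome 16 from 71114584 to 71115087, 732 kb from 4930423O20Rik. The second, with 35.3 and 22.9, lay on the same chromosome from 71835466 to 71836055, 828 kb from Robo1, an axon guidance receptor gene. The third, with 28.5 and 29.2, lay on chromosome 8 from 6973973 to 6974364, 1335 kb from Gm1840. All 3 stood between percentiles 84.4 and 85.1 and none was multi-copy. The highest-scoring WT-only peak, with 35.5 and 22.2, lay on chromosome 3 from 111994955 to 111995755, 1066 kb from Amy2a5, and 89.6% of its 24-base sequences were repeated. The second, with 21.1 and 27.0, lay on chromosome 15 from 14949102 to 14949533, 1759 kb from the cadherin gene Cdh9. The third, with 20.9 and 24.4, lay in an intron of Magi1, a scaffold protein of cell junctions, on chromosome 6 from 93677663 to 93678058. These WT-only peaks stood between percentiles 63.2 and 78.9.

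The highest-scoring shared desert peaks carried mitochondrial-like sequence. The first, on chromosome 12 from 98299503 to 98300135, had replicate values of 297 and 304 in clone 3 and 309 and 296 in WT, and matched the mitochondrial chromosome with 99.7% identity over 365 bp. The second, on chromosome 6 from 9839797 to 9840304, had 155 and 151 in clone 3 and 149 and 149 in WT, with 95.5% identity over 310 bp. The third, on chromosome 5 from 60433915 to 60434432, had 138 and 139 in clone 3 and 129 and 133 in WT, with 97.9% identity over 383 bp. All 3 stood at percentile 99.9 or above in both lists. Of the 10 highest-scoring desert peaks 4 had such a match in each list, and in all 5 shared (1.14%), 0 clone 3-only (interval up to 1.06%) and 0 WT-only desert peaks (interval up to 6.02%) did. Outside deserts, 9 of 15506 shared clone 3 peaks (0.0580%) had such a match, with a median percentile of 99.8, so high ranks of these peaks were not limited to deserts. Reads from the mitochondrial genome and reads from these nuclear copies cannot be told apart in the lists.

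Shared desert peaks ranked higher in clone 3 than in WT. Their median score percentile was 73.3 (interval 69.3 to 75.3) in the clone 3 list and 54.4 (interval 51.2 to 57.9) in the WT list, beside 61.6 and 62.2 for shared peaks elsewhere. The rank shift, the percentile in clone 3 minus that of the overlapping WT peak, had a median of 13.1 points (interval 11.8 to 14.8) in deserts and -0.426 (interval -0.638 to -0.235) elsewhere. It was above 0 in 377 of 437 desert peaks (86.3%, interval 82.7 to 89.2) and in 47.9% of the others. A rise of at least 20 points was found in 33.4% of desert peaks and 11.1% of the others, and a fall of at least 20 points in 1.60% and 11.7%.

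The shift was also seen with single replicates, though the WT replicates differed from each other in deserts. Taking 1 replicate of each list at a time, the 4 median shifts of the 437 shared desert peaks were 8.20, 10, 14.6 and 15.6 points. For the same peaks, WT replicate 2 minus WT replicate 1 had a median of -4.44 points (interval -5.77 to -2.58), and 37.1% ranked higher in replicate 2. Outside deserts this WT difference had a median of -0.00922 points (interval -0.138 to 0.101), and 49.9% ranked higher in replicate 2. For clone 3, replicate 2 minus replicate 1 had a median of 0.205 points (interval -0.432 to 1.21) in deserts and -0.00668 elsewhere. The lowest desert shift between the lists was thus larger in size than the desert difference between the WT replicates. The replicates are technical, so the spread between cultures of a line is unknown. The doxycycline state behind each replicate value is not given, so whether the replicates of a list differ in it is unknown. Across desert peaks the Spearman correlation of the replicate values was 0.741 in clone 3 and 0.728 in WT, beside 0.836 and 0.830 elsewhere.

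Repeats and base composition moved with the rank shift. It was 19.1 points (interval 16 to 21.0) for multi-copy and 11.3 (interval 8.92 to 13.1) for other shared desert peaks, and 10.8 (interval 7.18 to 12.6) for the 272 that were neither multi-copy nor near L1Md_F-like sequence, beside -0.969 for such peaks elsewhere. Shared peaks elsewhere, when weighted to the surrounding GC content of the desert peaks, had a median shift of 4.79 points, weighted to their own GC content 2.44, and weighted to the WT score decile -0.0135. Shared peaks outside deserts but over 50 kb from a coding gene start had a shift of 4.43 (interval 3.90 to 5.30). By distance the shift was -3.04 points within 1 kb of a start, 5.07 at 100 to 250 kb, 8.78 (interval 7.19 to 10.3) at 250 to 500 kb, 13.1 at 500 to 1000 kb and 12.9 (interval 9.34 to 17.8) beyond 1000 kb. What part repeats or base composition have in the shift was not tested.

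**Figure D5:**
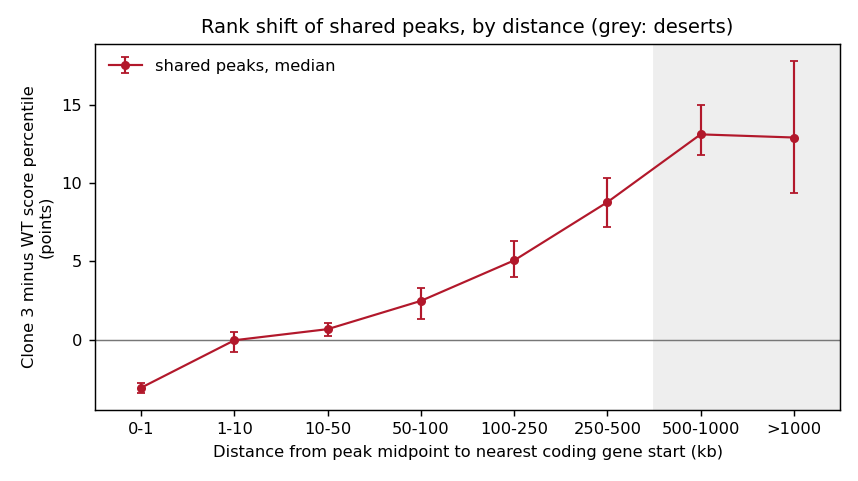
Median rank shift of shared peaks (clone 3 minus WT score percentile, in points, y axis) by distance from the peak midpoint to the nearest coding gene start (kb, x axis), with 95% binomial intervals as bars and the desert bins shaded grey. The median was -3.04 within 1 kb and 13.1 at 500 to 1000 kb.

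The desert between Ncam2 and Mrpl39, a mitochondrial ribosomal protein gene, on chromosome 16 from 81700943 to 84235986, is given peak by peak. It had 10 clone 3 peaks, 7 of them shared and 3 clone 3-only, and 0 WT-only peaks. The shared peak from 82596697 to 82597146 had replicate values of 50.6 and 52.1 in clone 3 and 48.3 and 32.2 in WT, and its percentile was 98.0 in clone 3 and 92.4 in WT. The shared peak from 82091382 to 82092168 had 24.9 and 16.9 in clone 3 and 16.5 and 15 in WT, with percentiles of 64.4 and 28.9. The third shared peak, from 81859411 to 81859981, went the other way, with 15.1 and 17.0 in clone 3 and 27.2 and 12.8 in WT and percentiles of 39.3 and 52.8. The clone 3-only peaks lay from 82577019 to 82577327 with values of 6.40 and 6.68, from 82577737 to 82578436 with 15.3 and 12.8, and from 82918279 to 82919121 with 18 and 15.4. Their percentiles were 0.232, 27.2 and 43.6, so all 3 stood in the lower part of the list. The last of them, with 63.8% GC, was multi-copy. The other 4 shared peaks, nearer to Mrpl39, ranked higher in clone 3. The peak from 83137521 to 83138136 had 25.2 and 28.4 in clone 3 and 27.0 and 17.2 in WT, with percentiles of 80.8 and 61.4. The peak from 83537980 to 83538615 had 35.8 and 31.7 in clone 3 and 35.1 and 30.6 in WT, with percentiles of 90.3 and 85.3. The peak from 83579288 to 83579801 had 29.8 and 33.7 in clone 3 and 22.2 and 28.1 in WT, with percentiles of 88.2 and 70.7. The peak from 84045547 to 84046000 had 20.1 and 22.8 in clone 3 and 15.5 and 15.6 in WT, with percentiles of 66.7 and 28.0. Of the 7 shared peaks of this desert, 6 thus ranked higher in clone 3 than in WT, beside 86.3% of all shared desert peaks.

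The members farthest from any coding gene start were shared. They lay 2196 kb from Pik3c3, a lipid kinase gene, 2153 kb from the protocadherin gene Pcdh17 and 2084 kb from Olfm4, with clone 3 and WT percentiles of 70.6 and 78.6, of 56.5 and 7.45, and of 61.4 and 28.7. The last of these 3 was multi-copy, with 93.7% of its 24-base sequences repeated. Desert peaks were also far from each other. The median distance to the nearest peak of the same list was 87.6 kb for clone 3-only (interval 73.1 to 101), 86.7 kb for shared clone 3 peaks and 113 kb for WT-only (interval 47.5 to 204), beside 25, 24.5 and 19.4 kb elsewhere. Another peak of the same list within 10 kb was found for 12.3% of clone 3-only, 11.0% of shared and 10% of WT-only desert peaks.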

How the data were processed

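ATAC-seq libraries were made by the authors from 2 technical replicates per line. The authors used CutAdapt for trimming, Bowtie2 for alignment to mm9 and Picard for duplicates, and went on with uniquely placed, properly paired reads. They called peaks with MACS2 and kept those with an Irreproducible Discovery Rate (IDR) up to 0.05 between replicates, and the submitters' notes also name bcl2fastq and bedtools. For each peak they deposited a start, an end, the IDR, and 1 value per replicate whose scale is not named. Coordinates were read as counted from 1. Depth per sample is unknown. The authors also made an alignment in which reads of several places went to 1 place at random, and the files do not name the alignment behind the lists, which bears on counts in repeats.

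Percentiles are ranks of the score among the autosomal peaks of a list. A peak that overlapped several peaks of the other list was paired with the highest-scoring one. The mm9 sequence (NCBIM37) and GENCODE M1 gave GC content, motifs and genes. L1Md_F-like sequence means a BLAST match of at least 500 bp and 80% identity to the element on chromosome 2 from 51982915 to 51985375. Mitochondrial matches needed 100 bp and 80% identity, with an e-value up to 1e-10. Named peaks were the 3 highest-scoring of each class, the 3 farthest, the 2 nearest the radius on each side and those in the desert between Ncam2 and Mrpl39, of which the 4 nearer to Mrpl39 were added after their values were seen. Named stretches were the 6 with the most peaks and the 3 with the most clone 3-only and WT-only peaks. Ties in rank are given in the text. Named genes flank those, or lead by the number of peaks nearest to them, in their bodies or in their gene group. A gene that this rule names is not reported here. The members and lists were chosen with earlier results of these data known. On simulated data, overlap was right for 4500 of 4500 peaks, distance for 1500 of 1500, the true median lay in 472 of 500 median intervals, and 15 of 15 repeated and 0 of 15 unique sequences were called multi-copy. Versions were BLAST 2.17.0, samtools 1.23.1, pysam 0.24.0, matplotlib 3.10.9, pandas 2.3.3, numpy 2.4.6, numba 0.67.0, scipy 1.17.1 and Python 3.11.15.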

Additional observations from a re-analysis of the deposited data

How the results depend on the processing

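Of 112 values recomputed under other settings, 70 stayed within the interval of the reported value and 42 left it. The order of the classes held for the share of peaks in deserts but changed in some settings for median GC content and percentile. In order clone 3-only, WT-only and shared, the share of peaks in deserts was 12.6, 3.12 and 6.49% with a radius of 250 kb, 1.51, 0.142 and 0.640% with 1000 kb, 4.99, 0.745 and 2.30% with all coding transcript starts, 0.926, 0.213 and 0.445% with starts of genes of every kind, and 3.97, 0.827 and 2.15% without multi-copy peaks. It was 9.05% for clone 3-only peaks at an IDR up to 0.01, 9.51% at scores from the list median up and 6.69% with the chromosome 1 segment. The desert share found in clone 3 only was 51.0% at scores from the median up and 38.8% without multi-copy peaks, here removed from both lists before overlap was called, and in WT only 7.87% at such scores and 7.27% with 1000 kb. Median GC content without multi-copy peaks was 46.3% for clone 3-only and 46.5% for shared peaks, so the reported difference between them was lost, at IDR 0.01 it was 48.0% for WT-only and 46.7% for shared, and with 1000 kb 48.4% for WT-only. Median percentiles at IDR 0.01 were 59.6, 49.0 and 82.6 in the same order, 49.2 for clone 3-only and 79.6 for shared without multi-copy peaks, 43.4 for WT-only, beside 43.2 for clone 3-only, and 78.3 for shared with 1000 kb, and 42.2 for clone 3-only with 250 kb. The rank shift was 10.9 points with 250 kb, 10.8 at IDR 0.01 and 11.4 without multi-copy peaks. Chosen after seeing the data, leaving out peaks near L1Md_F-like sequence gave 39.3% for the clone 3 desert share and 3.79, 0.683 and 1.97% in deserts, leaving out mitochondrial-like peaks left the first 5 results within their intervals, and the weightings by surrounding GC content and multi-copy status stand in the text. The causes were not tested. No paired analysis was possible because each line has 1 list. Depth is unknown, so a peak of 1 list may have missed the threshold in the other.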

Other observations

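Shares of desert peaks that were not members are given as values. On the X chromosome, 30 of 56 clone 3 desert peaks (53.6%, Wilson interval 40.7 to 66.0) were clone 3-only, beside 30.7% of the other X peaks (interval 28.1 to 33.4), and 2 of 28 WT desert peaks (7.14%, interval 1.98 to 22.6) were WT-only, beside 18.6% (interval 16.3 to 21.2). On chromosome 1 from 100 to 130 Mb, 70 of 100 clone 3 desert peaks (70.0%, interval 60.4 to 78.1) were clone 3-only, beside 60.5% of the other peaks there (interval 54.4 to 66.3), and 1 of 32 WT desert peaks (3.12%, interval 0.554 to 15.7) was WT-only, beside 9.01% (interval 4.97 to 15.8). The intervals of desert and other peaks overlapped in all of these comparisons but that of clone 3 on the X chromosome. The chromosome 1 segment held an excess of clone 3-only peaks as a whole, inside and outside its deserts.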
